A study of Sus scrofa with 11 samples.

Results

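Cells short of amino acids switch on a set of genes that is led by a few transcription factors. Uncharged transfer RNA activates the kinase GCN2 (EIF2AK4), which phosphorylates the initiation factor eIF2, and general protein synthesis slows while translation of the ATF4 mRNA increases. ATF4 acts with partners such as CEBPB, induces ATF3 and DDIT3 (also known as CHOP), and raises the transcription of genes for amino acid synthesis, amino acid transport and restraint of the growth kinase complex mTORC1. The same factors respond to unfolded protein in the endoplasmic reticulum, through the kinase PERK, and to other stresses. Because ATF4 is controlled largely at translation, its mRNA is an incomplete measure of its activity. In skeletal muscle the pathway is known to respond to limited supply of essential amino acids.

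The genes described here are the factors ATF4, ATF5, ATF3, DDIT3 and CEBPB, the targets ASNS and PSAT1, the mTORC1 inhibitors DDIT4 and SESN2, and the feedback inhibitor TRIB3. A probe set was taken when the platform annotation gave a single distinct symbol and that symbol was one of these 10. TRIB3 and SESN2 had no such probe set, which left 8 genes with 9 probe sets among the 23999 tested, and ATF4 was the member with more than 1. The annotation repeats the symbol DDIT4 for more than 1 gene entry, and it was counted as a single symbol. The rule for taking probe sets used no measured value, but the genes were chosen with earlier results of these data known. ASNS and DDIT3 are among the genes called in the study on these same pigs, so their values are not independent evidence.

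Expression was measured in the *M. semimembranosus* (SM), a hind limb muscle, of 11 Duroc gilts, with 1 Affymetrix Porcine Genome array per pig. From about 10 weeks of age, 6 pigs received a high protein (HP) diet with 217 g/kg crude protein and 13 g/kg lysine, and 5 received a low protein (LP) diet with 128 g/kg crude protein and 7 g/kg lysine. Both diets supplied 14 MJ/kg digestible energy and were fed for 63 days, so the LP pigs had less protein and less lysine over a long period. Access to feed was free, and the time from the last meal to slaughter is not given. The part of a recent meal or fast was not tested. Pigs were blocked on starting weight and penned in groups, and neither block, pen nor slaughter date is given per pig, so their part cannot be told apart from diet. Whole muscle was assayed, and fewer cells of a type and less RNA per cell cannot be told apart in such samples.

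Levels below are the deposited log2 values, and differences are LP minus HP with the standard error (SE) of the limma fit. A probe set was called at an unadjusted limma p at or under 0.05, the threshold of the study. At that threshold 1227 probe sets were called, or 5.11%, of which 515 were higher in LP (2.15%) and 712 lower (2.97%). After Benjamini-Hochberg adjustment of the limma p-values none of the 23999 passed 0.05, and the smallest adjusted p was 0.644. Every p-value reflects the spread between these pigs. All 11 arrays shared a median level of 6.72, and 74.9% to 85.3% of probe sets lay above the highest of the 23 negative controls on their array.

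The arrays differed at the bright end of the scale. The mean of the 27 hybridisation spike-in probe sets, which detect bacterial and phage transcripts, ran from 11.30 to 12.22 in HP and from 11.43 to 11.77 in LP. HP arrays 1, 2 and 4 had the 3 highest spike-in means and the 3 highest 99th percentiles of level (13.11, 13.16 and 13.29, against 12.47 to 12.93 on the other arrays). The spike-in mean was 0.26 lower in LP, with an exact permutation p of 0.186. Within diets the median correlation with it was 0.765 over the 2400 probe sets of highest mean level, and the median LP minus HP difference of those was -0.09. Of those 2400 probe sets 75.2% lay below 0, against 52.6% of all probe sets. Values of the fit with the spike-in mean as a covariate are given beside the results where they changed a call or a balance of signs.

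DDIT3, ATF3 and ASNS were higher in LP muscle, by 1.59, 1.93 and 1.56 fold, while ATF4, CEBPB, PSAT1 and DDIT4 were not called. A low signal for ATF5 was also called, which made 4 of the 9 member probe sets higher and 0 lower, beside the 2.15% and 2.97% of all probe sets. None of the 9 had HP and LP values that did not overlap at all, which 0.579% of all probe sets did. No member passed after adjustment over all probe sets.

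**Figure D1:**
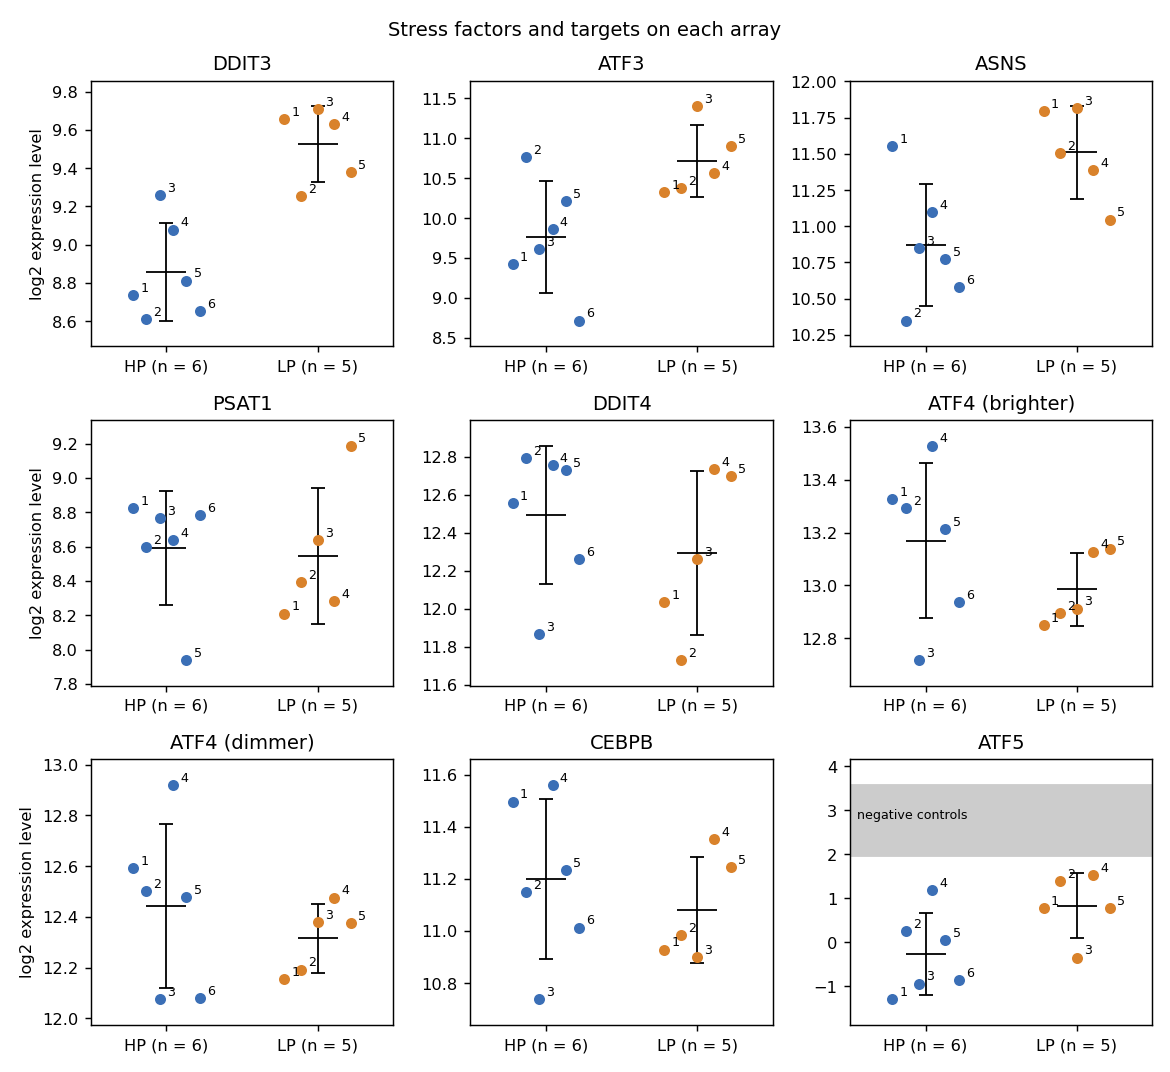
Deposited log2 level of each member probe set (vertical axis) on every array, HP and LP side by side, with 1 point per pig and the mean and SD of each diet. The LP points of DDIT3, ASNS and ATF3 all lie above the HP mean, the ATF4, CEBPB, DDIT4 and PSAT1 points overlap widely, and ATF5 lies below the negative controls.

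DDIT3, a factor that dimerises with C/EBP proteins and is induced late in prolonged stress, gave the smallest p of the members. Its level in HP pigs 1 to 6 was 8.74, 8.61, 9.26, 9.08, 8.81 and 8.65, and in LP pigs 1 to 5 it was 9.66, 9.25, 9.71, 9.63 and 9.38. Of the 5 LP pigs 4 lay above the highest HP pig, and LP pig 2 lay just under it. The means were 8.86 ± 0.26 (SD, n = 6) in HP and 9.53 ± 0.20 (SD, n = 5) in LP. The difference was 0.67 (SE 0.15), with a limma p of 0.00112 and an exact permutation p of 0.00649. The limma adjusted p was 0.701. The call was kept under each of the 21 alternatives run, with differences from 0.62 to 0.75.

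ATF3, a stress-induced factor of the same bZIP class that represses and activates targets, had the widest spread of the called members above background. HP pigs 1 to 6 had levels of 9.42, 10.76, 9.61, 9.86, 10.22 and 8.72, and LP pigs 1 to 5 had 10.33, 10.37, 11.40, 10.57 and 10.90. LP pigs 3 and 5 were above every HP pig, and all HP pigs but pig 2 were under the lowest LP pig. The means were 9.76 ± 0.70 (SD, n = 6) and 10.71 ± 0.45 (SD, n = 5). The difference of 0.95 (SE 0.34, 95% interval 0.20 to 1.70) had a limma p of 0.0179 and an exact permutation p of 0.0303. The limma adjusted p was 0.934.

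ATF4, the factor at the head of the program, was measured by a pair of probe sets that gave like results. On the brighter probe set the HP pigs had levels of 13.32, 13.29, 12.72, 13.53, 13.21 and 12.94, and the LP pigs had 12.85, 12.90, 12.91, 13.13 and 13.14. All LP levels lay within the HP range and under the HP mean of 13.17. The difference was -0.18 (SE 0.15, 95% interval -0.52 to 0.16, exact permutation p = 0.219). The dimmer probe set gave a difference of -0.13 (SE 0.16, exact permutation p = 0.42), with HP levels from 12.08 to 12.92 and LP levels from 12.16 to 12.48. Both differences changed sign when arrays were quantile normalised (0.0036 and 0.010) or when the spike-in mean was a covariate (0.0077 and 0.077), so no direction is given for ATF4.

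CEBPB, a C/EBP partner of ATF4 that also serves inflammation and adipocyte differentiation, had levels from 10.74 to 11.56 in HP and from 10.90 to 11.35 in LP. The LP range lay inside the HP range. The difference was -0.12 (SE 0.17, 95% interval -0.49 to 0.25, exact permutation p = 0.474), and it was 0.071 with the spike-in mean as a covariate. ATF5, a relative of ATF4 that is likewise translationally controlled, was under the highest negative control on all 11 arrays. Its mean value was -0.27 ± 0.93 (SD) in HP and 0.82 ± 0.74 (SD) in LP, with a limma p of 0.0426 and an exact permutation p of 0.0671. Both diets were under background, so no fold is given and no ATF5 mRNA level can be read from the call.

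Among the targets, ASNS, asparagine synthetase and a standard reporter of ATF4 activity, was higher in LP. HP pigs 1 to 6 had levels of 11.56, 10.35, 10.85, 11.10, 10.78 and 10.58, and LP pigs 1 to 5 had 11.79, 11.50, 11.82, 11.39 and 11.05. LP pigs 1 and 3 were above every HP pig, HP pigs 1 and 4 overlapped the LP pigs, and 4 of the HP pigs were under all LP pigs. The means were 10.87 ± 0.42 (SD, n = 6) and 11.51 ± 0.32 (SD, n = 5). The difference of 0.64 (SE 0.22, 95% interval 0.15 to 1.14) had a limma p of 0.0158 and an exact permutation p of 0.026. The limma adjusted p was 0.923. The call was kept under the 21 alternatives run, with differences from 0.54 to 0.78.

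PSAT1, which carries out a transamination in serine synthesis, was not called. HP pigs had levels of 8.83, 8.60, 8.77, 8.64, 7.94 and 8.79, and LP pigs had 8.21, 8.39, 8.64, 8.28 and 9.19. HP pig 5 was far below the other HP pigs, and LP pig 5 was the highest of all. The difference was -0.05 (SE 0.22, 95% interval -0.52 to 0.43, exact permutation p = 0.818). DDIT4 (REDD1), which restrains mTORC1 under energy, oxygen and amino acid stress, had HP levels of 12.56, 12.80, 11.87, 12.76, 12.73 and 12.26. Its LP levels were 12.04, 11.73, 12.26, 12.74 and 12.70. The groups overlapped over nearly their whole range, and the difference was -0.20 (SE 0.23, 95% interval -0.72 to 0.31, exact permutation p = 0.407). With the spike-in mean as a covariate it was 0.065.

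The paralogs of the members included 4 genes that fell and 1 that rose, of 11 measured. By gene, with the brightest probe set taken for each of 6790 genes, 4.71% of all genes were called, 1.56% higher and 3.15% lower. Of these 6790 genes 2884 lay above 0 and 3906 below. With the spike-in mean as a covariate 4014 lay above 0 and 2776 below, with 273 called higher and 211 lower. DDIT4L (REDD2), a paralog of DDIT4 that also restrains mTORC1 and is abundant in muscle, fell by 0.81 (SE 0.26, limma p = 0.0109, exact permutation p = 0.0238), or 1.76 fold. Its levels were 10.31, 9.69, 9.72, 10.53, 10.87 and 9.79 in HP and 8.82, 9.89, 9.57, 9.18 and 9.23 in LP, so only LP pig 2 was above the lowest HP pigs. The call on DDIT4L was kept in every alternative run.

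SESN1, a sestrin like SESN2 that takes part in leucine sensing upstream of mTORC1, fell by 0.38 (SE 0.16, limma p = 0.0393, exact permutation p = 0.0476), or 1.30 fold. HP levels were 13.12, 13.17, 12.46, 13.31, 13.11 and 12.78, and LP levels were 12.50, 12.52, 12.54, 12.79 and 12.73. HP pig 3 lay below all LP pigs, and 4 HP pigs lay above 12.79. A dimmer SESN1 probe set fell by 0.43 (limma p = 0.00981, exact permutation p = 0.0173). The call on the brighter probe set was lost on leaving out any of HP pigs 1, 2, 4 and 5 or LP pigs 1 to 3, and the difference was -0.17 with the spike-in mean as a covariate. With that covariate DDIT4L was the 1 gene of this list still called. The other calls were on CREB3L2 (-0.39, exact permutation p = 0.026) and CREB3L4 (-0.42, exact permutation p = 0.0455), membrane-bound bZIP factors, and on CREB1 (0.30, exact permutation p = 0.0173), a cyclic AMP-responsive factor. A dimmer CREB1 probe set differed by 0.07, and each of these 3 calls was lost on leaving out any of at least 5 of the pigs. SESN1, DDIT4L and CREB3L4 are also among the study's own calls on these pigs. So is ASNSD1 of this list, lower there and not called here (-0.17, limma p = 0.0995, exact permutation p = 0.013).

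Of 18 other known ATF4 targets measured, 1 was called higher and 0 lower, and the median difference was 0.13 against -0.04 over all genes. Over the 16 of them above background on all arrays the median was 0.07. The called gene was SLC1A4, a transporter of neutral amino acids, with 4.43 ± 0.30 (SD) in HP and 4.88 ± 0.22 (SD) in LP. All 5 LP pigs were above the HP mean, and the difference of 0.46 (SE 0.17) had a limma p of 0.0205 and an exact permutation p of 0.0303. That call was lost without LP pig 2 (0.39), with the spike-in mean as a covariate (0.39), with the trended prior (0.46), with the replicate block (0.39) and without HP arrays 1, 2 and 4 (0.38). SLC7A1, the cationic transporter that takes up lysine and arginine, was not called at 0.39 (SE 0.19, exact permutation p = 0.0693). It was called in 6 alternatives, among them the spike-in covariate (0.52) and without HP pig 4 (0.51). With that covariate SLC7A1 was the 1 gene of this list called higher, and 1 was called lower. PSPH, the last enzyme of serine synthesis, gave 0.33 (SE 0.23, exact permutation p = 0.19), and SLC3A2, the shared heavy chain of several amino acid exchangers, gave 0.34 (SE 0.24, exact permutation p = 0.19). PHGDH, the first enzyme of serine synthesis, was above background on 0 arrays.

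**Figure D2:**
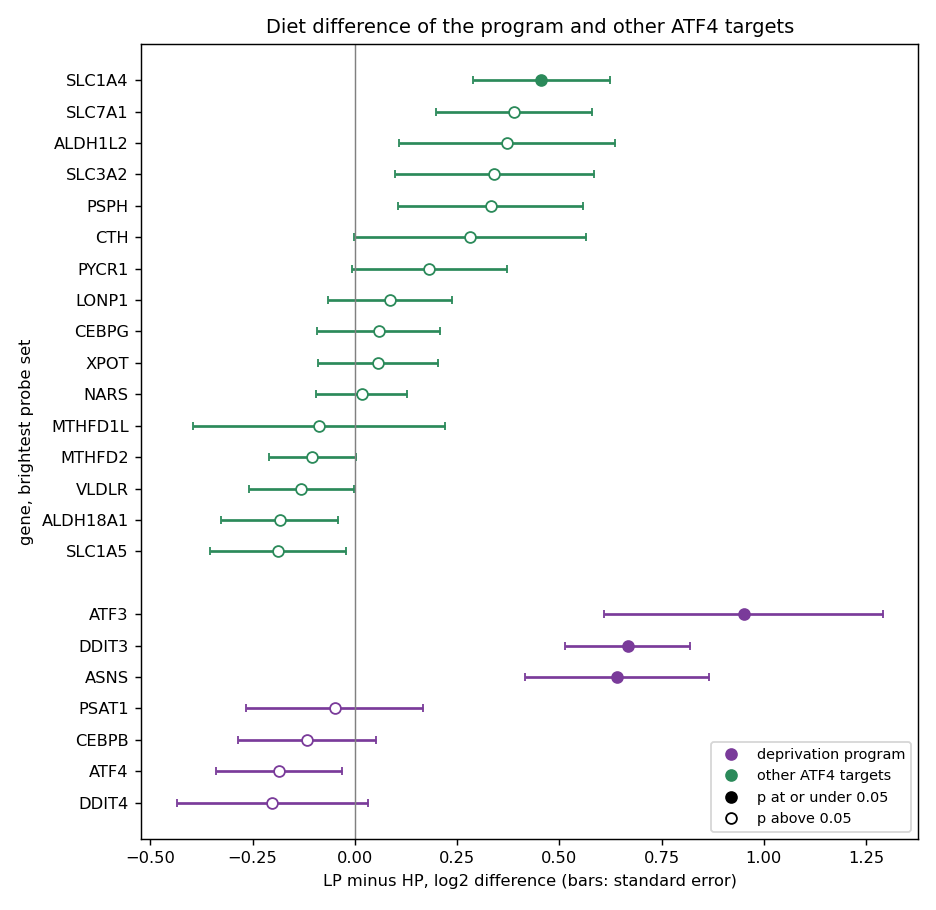
LP minus HP difference on the log2 scale (horizontal axis) with bars of 1 limma SE, for the member genes and the other ATF4 targets above background on all 11 arrays, by the brightest probe set. Filled points had a limma p at or under 0.05, and these are ATF3, DDIT3, ASNS and SLC1A4, all to the right of 0.

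Upstream of ATF4, 14 genes for eIF2 kinases and related proteins, eIF2 and its phosphatase were measured. EIF2AK2 was the only eIF2 kinase among them, so GCN2 and PERK were not read in this list. None of the 14 was called, with 7 above 0 and 7 below. That split depended on the scaling, with 10 above 0 and 4 below after quantile normalisation and 13 above 0 and 1 below (median 0.13) with the spike-in mean as a covariate, still with none called. The smallest limma p of the 14 was on PPP1R15A (GADD34), an ATF4-induced phosphatase subunit, at 0.28 (SE 0.18, limma p = 0.152, exact permutation p = 0.149). PPP1R15B, the other such subunit, gave -0.17 (SE 0.12, limma p = 0.191) and the smallest exact permutation p, 0.134. Of 15 endoplasmic reticulum stress genes none was called and 11 were below 0, with a median of -0.08, beside 3906 of all 6790 genes below 0. CRELD2 gave -0.25 (exact permutation p = 0.104), XBP1 gave -0.21 (p = 0.117), PDIA6 gave -0.15 (p = 0.0541), and the chaperone HSPA5 gave -0.05. With the spike-in mean as a covariate 7 of the 15 were above 0 and 8 below.

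The mTORC1 amino acid sensing list had no call among 12 genes, with a median of -0.02 and the smallest p on the arginine sensor CASTOR1 (-0.28, exact permutation p = 0.108). With the spike-in mean as a covariate 10 of the 12 lay above 0 (median 0.10), 1 was called higher and 1 lower, the lower one being CASTOR1 at -0.42. That fit placed 4014 of all 6790 genes above 0, with a median of 0.04. The 12 glucocorticoid targets had no call either, and 11 lay below 0, beside 3906 of all 6790 genes. Their median was -0.23. That median was -0.08, with 7 of 12 below 0, when the spike-in mean was a covariate, beside 2776 of all 6790 genes. KLF9, a direct target of the glucocorticoid receptor, gave -0.42 (SE 0.21, exact permutation p = 0.0714). KLF9 was called lower in 6 alternatives, among them quantile normalisation (-0.35) and without HP pig 3 (-0.57), and was -0.20 with the spike-in covariate.

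The immediate early list, a set of genes that respond quickly to many stimuli and includes relatives of ATF3, had 2 of 18 genes higher and 0 lower. BTG2, an antiproliferative gene, rose by 1.24 (SE 0.29, limma p = 0.00131, exact permutation p = 0.00649), or 2.36 fold, from 6.85 ± 0.56 (SD) to 8.09 ± 0.41 (SD). HP levels of BTG2 were 7.09, 6.47, 6.85, 7.63, 7.06 and 5.98 and LP levels were 8.12, 7.80, 8.69, 7.62 and 8.20, with HP pig 4 and LP pig 4 the single point of overlap. IER5, a growth and stress response gene, rose by 0.58 (SE 0.23, limma p = 0.0266, exact permutation p = 0.0368), and its call was lost without HP pig 3 or LP pig 2, 3 or 5. NR4A3 gave 0.99 (SE 0.53, exact permutation p = 0.115), and FOS gave 0.81 (p = 0.359). BTG2 is among the study's calls on these pigs, but the probe set listed with its qPCR check is not the one read here. The part of these genes in the ATF3 difference was not tested.

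**Figure D3:**
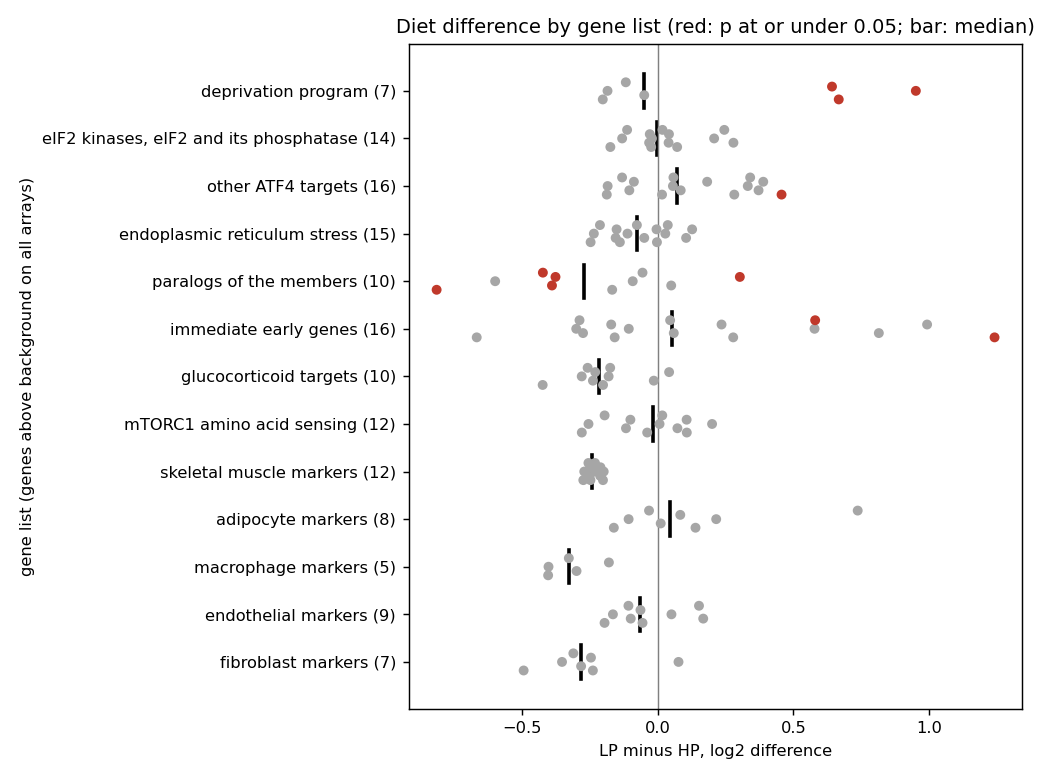
LP minus HP difference on the log2 scale (horizontal axis) of every gene above background on all 11 arrays, 1 point per gene and 1 row per list, with the number of genes in brackets, the list median as a bar and called genes in red. The medians run from -0.33 in the macrophage list to 0.07 in the other ATF4 targets, against -0.04 over all genes.

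Markers of the cell types that whole muscle holds are given here beside the members. All 12 skeletal muscle markers were well above background, with mean levels from 12.90 to 13.72, so the label of the tissue held. All 12 were lower in LP by 0.20 to 0.27 with none called, and their median of -0.24 became 0.03 with the spike-in mean as a covariate and 0.00 after quantile normalisation. The mean level of 8 adipocyte markers ran from 6.98 to 7.87 in HP and from 7.21 to 7.85 in LP, with none called. LEP, the hormone leptin, gave 0.74 (SE 0.34, exact permutation p = 0.0887) on its brightest probe set, which was called in 4 other settings. A dimmer LEP probe set was called higher, with levels from -2.95 to 5.71 in HP and from 6.20 to 7.83 in LP that did not overlap (exact permutation p = 0.00866), and it was above background in 4 of 6 HP pigs and all LP pigs. The mean of the LEP probe sets was also called, at 2.19. LEP is also among the study's calls on these pigs. FABP4, the adipocyte fatty acid carrier, gave -0.11.

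Fibroblast marker means ran from 8.79 to 9.69 in HP and from 8.59 to 9.09 in LP, with 6 of 7 genes below 0 and none called. With the spike-in mean as a covariate all 7 were below 0 (median -0.38) and 3 were called lower, THY1 at -0.81 and DPT at -0.38 among them. Over all 6790 genes that fit placed 2776 below 0 and called 211 lower. Endothelial marker means were 7.93 to 8.53 and 8.03 to 8.36, with 0 of 9 called and 3 above 0. With the spike-in covariate 7 of the 9 were above 0 and 1 was called, ESAM at 0.36, and without HP arrays 1, 2 and 4 the counts were the same with ESAM at 0.47. Over all 6790 genes these settings placed 4014 and 4169 above 0. Dimmer ESAM probe sets gave 0.21 and -0.03 in the reported fit, neither called. Macrophage marker means, which include MARCO, were 5.94 to 6.72 and 6.13 to 6.78. The 1 call of 6, MARCO, was higher in LP but under background on every array. The other 5 were above background on all arrays and all lay below 0, with a median of -0.33 and none called. With the spike-in covariate 5 of the 6 were again below 0, and the median of the 6 was -0.48. The part of cell make-up in the DDIT3, ATF3 and ASNS differences was not tested.

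Covariation of the factors with the targets was then examined over the 11 arrays, for 5 factors and 3 targets, or 15 pairs. Diet means were removed first, so that a shared diet difference could not make a pair correlate, and p-values came from exact permutation within diets. Of the 15 pairs 1 passed after Benjamini-Hochberg adjustment, ATF4 with DDIT4, and 2 had an unadjusted p under 0.05.

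ATF4 and DDIT4 correlated at r = 0.832 over the 11 pigs (exact permutation p = 0.00159, adjusted p = 0.0238). Spearman's rho was 0.782 (exact permutation p = 0.00495, adjusted p = 0.0743). Leaving out HP pigs 3 and 4, the farthest from the median of ATF4, gave r = 0.803, and the value was 0.913 within the HP pigs. Without removal of diet, r was 0.842 (permutation p = 0.0014, adjusted p = 0.021) and rho was 0.836 (permutation p = 0.00241, adjusted p = 0.0361). CEBPB and DDIT4 correlated at r = 0.765 (exact permutation p = 0.00963, adjusted p = 0.0722), with rho = 0.727 (exact permutation p = 0.0124, adjusted p = 0.0931). Leaving out the same 2 pigs gave r = 0.644.

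These genes also followed the spike-ins. Within diets ATF4 correlated with the spike-in mean at r = 0.948 (rho = 0.936, exact permutation p = 0.000127, adjusted p = 0.00204 over 16 relations). CEBPB gave r = 0.825 (rho = 0.882, exact permutation p = 0.00616, adjusted p = 0.0197), and DDIT4 gave r = 0.785 (rho = 0.791, exact permutation p = 0.000706, adjusted p = 0.00565). The 2 pigs farthest from the median spike-in mean, left out, changed these to 0.959, 0.926 and 0.762. With the spike-in mean removed as well as diet, the correlation of ATF4 with DDIT4 was 0.443 and that of CEBPB with DDIT4 was 0.335, and neither passed. After quantile normalisation ATF4 with DDIT4 was 0.299. The 16 relations paired the 8 members with the spike-in mean and with the 3' minus 5' actin control signal, a measure of RNA integrity and labelling. That signal differed by -0.43 between diets (LP minus HP, exact permutation p = 0.123). Within diets it correlated with ATF4 at 0.834 and DDIT4 at 0.812 (exact permutation, both adjusted p = 0.0197). CEBPB gave 0.723, ATF3 0.387, ASNS -0.376 and DDIT3 -0.288, and none of these passed adjustment. The part of this signal was not tested.

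**Figure D4:**
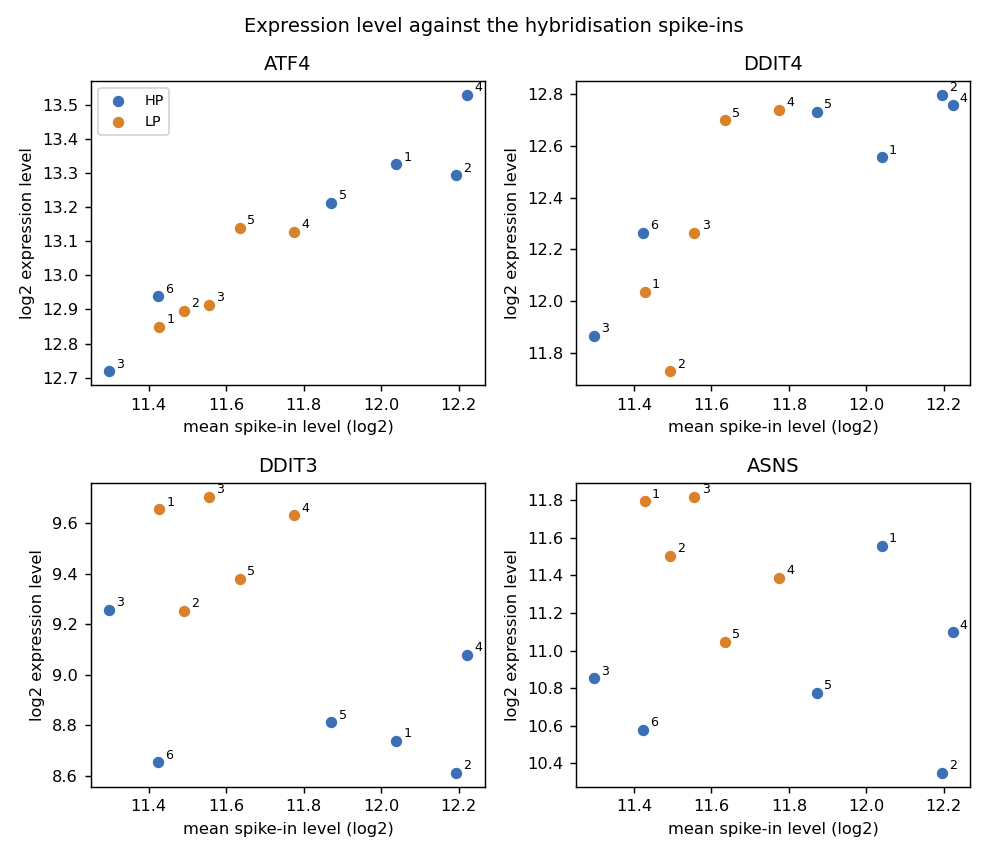
Log2 level of ATF4, DDIT4, DDIT3 and ASNS (vertical axes) against the log2 mean of the spike-in probe sets (horizontal axes), 1 point per array with its pig number, HP in blue and LP in orange. ATF4 and DDIT4 rise with the spike-ins, and DDIT3 and ASNS do not.

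Of the genes higher in LP, DDIT3 and ASNS showed no detectable relation to the spike-ins. DDIT3 correlated with the spike-in mean at r = -0.23 (rho = -0.1, exact permutation p = 0.585, adjusted p = 0.668) and ASNS at 0.0642 (rho = -0.0545, exact permutation p = 0.88, adjusted p = 0.88). ATF3 gave r = 0.546 (rho = 0.5, exact permutation p = 0.169, adjusted p = 0.3). With the spike-in mean as a covariate the 3 differences between diets were still called.

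DDIT3 and ASNS correlated at r = 0.725 over all 11 arrays without removal of diet (permutation p = 0.0152, adjusted p = 0.0761, with rho = 0.709, permutation p = 0.0186, adjusted p = 0.0931). With diet removed the value was r = 0.381 (exact permutation p = 0.297, adjusted p = 0.751) and rho = 0.464 (exact permutation p = 0.178, adjusted p = 0.444). It was 0.284 within HP and 0.59 within LP, and 0.408 with the spike-in mean removed as well. Without HP pigs 2 and 6, the farthest from the median of DDIT3, it was 0.0446. Within diets the relation was positive but did not pass.

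ATF3 and ASNS, the other called pair, gave r = -0.212 with diet removed (rho = -0.291, exact permutation p = 0.591, adjusted p = 0.952). Without HP pig 6 and LP pig 3, the farthest from the median of ATF3, it was -0.888. ATF4 and ASNS gave r = 0.0566 (rho = 0.0545, exact permutation p = 0.895, adjusted p = 0.952), and without HP pigs 3 and 4 it was -0.086. That value joined opposite signs, 0.317 within HP and -0.851 within LP. CEBPB and ASNS gave r = 0.18, with 0.574 within HP and -0.803 within LP. Neither diet was tested alone. The 5 correlations of PSAT1 with the factors ran from -0.358 to 0.0344 and none passed. Over the 11 pigs with diet means removed, neither ASNS nor PSAT1 had a detectable relation to the level of any factor. With 11 arrays only strong relations that run alike in both diets are detected.

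**Figure D5:**
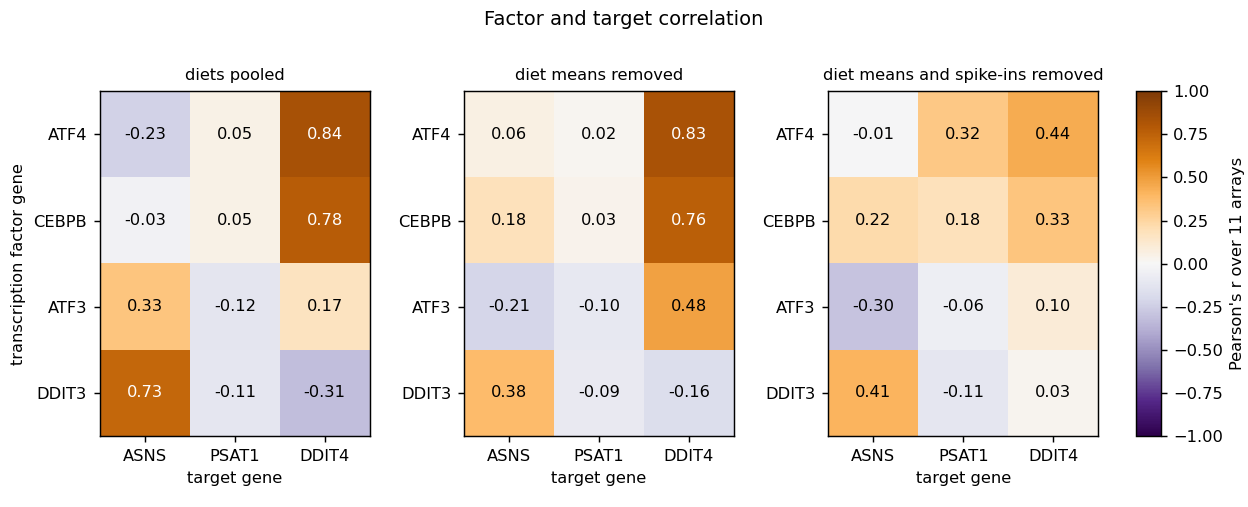
Pearson correlation over 11 arrays of each factor above background (rows) with each target (columns), by colour and printed value, with diets pooled (left), diet means removed (middle), and the spike-in mean removed as well (right). The ATF4 and CEBPB entries for DDIT4 are the highest in the middle panel, at 0.83 and 0.76, and are 0.44 and 0.33 in the right panel.

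The genes most alike in pattern to DDIT3 within diets, among 5641 genes above background over 11 arrays, were SLC37A1 (r = 0.846), ARL3 (0.842), PAMR1 (0.831), BACE1 (0.789) and SLC3A2 (0.769). The median correlation with DDIT3 over all those genes was -0.058. For ASNS they were VPS72 (r = 0.882), WNK4 (0.858), PAPD7 (0.85), PIH1D1 (0.841) and RNF135 (0.819), with a median of 0.0597 over all. None of these 10 was called between diets, and SLC3A2 had the largest difference of them, 0.34.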

How the data were processed

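For each probe set and array the authors deposited 1 expression level, in log2 units. RNA from each pig was amplified, labelled and hybridised to 1 array. The study's methods name R, Bioconductor and puma, while how background was handled, arrays normalised and probes summarised is not given in the sources used here. The common median shows that the arrays had been scaled, so absolute shifts of all genes cannot be seen. Depth does not apply to arrays, and their number limits precision.

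Of 24123 probe sets 124 controls were left out. Symbols came from the platform annotation, which gave 10110 probe sets 1 distinct symbol, 157 several and 13732 none. LP was compared with HP by limma (3.58.1, in R 4.3.3; lmFit and eBayes) over all probe sets, and by exact permutation over the 462 splits of the pigs, where the smallest possible p is 0.00216. Correlations used 86400 permutations within diets, or 100000 resamples for pooled values (Python 3.11.15, numpy 2.4.6, scipy 1.17.1). The scripts were tested on simulated data. Named genes were drawn from every member, the 3 with the smallest p of each of 12 other lists, and all further calls. The 5 genes most like DDIT3 and ASNS were also named. Not every gene so drawn is printed. Other genes named were chosen after their values were seen. Members and lists were chosen with earlier results of these data known. Alternatives were scaling, dim probe sets, low values, array weights, the prior, a replicate block, a spike-in covariate, each array left out, and the mean of a gene's probe sets.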

Additional observations from a re-analysis of the deposited data

Results flagged for a closer look

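In 94 groups searched (HP or LP, for 47 genes and probe sets), 2 held an array far from the rest of its group, and chance alone flags about 1 group in 20. PSAT1 was 7.94 in HP pig 5, against 8.60 to 8.83 in the other HP pigs. XBP1 was 10.94 in LP pig 5, against 10.47 to 10.60 in the other LP pigs.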

How the results depend on the processing

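Calls rest on unadjusted p-values, and none passed adjustment in the reported fit, with 0 to 3 passing when 1 array was left out. DDIT3 and ASNS kept their calls under all 21 alternatives each, and 3 or 4 member probe sets were called in every one. ATF3 kept its call except with the replicate number as a block (0.74, limma p = 0.0546 where its exact permutation p without the block was 0.0303), and ranged from 0.74 to 1.15 with 1 array left out. The numbers do not pair the pigs: correlations of same-numbered pigs were -0.15, 0.04, 0.01, 0.09 and 0.06, no LP pig correlated best with its own number, and the block called 567 probe sets higher and 665 lower. ATF5 lost its call after quantile normalisation (1.05), with low values raised (0), with a trended prior and by exact permutation (both 1.10), and ran from 0.89 to 1.39 with 1 array left out.

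All calls numbered 710 without dim probe sets, 1066 to 1521 with 1 array left out, and 1884 without HP arrays 1, 2 and 4 together, which was tried only after seeing those arrays. Of the calls 58.0% were lower in LP, against 44.9% with the spike-in covariate, 48.6% without HP array 4 and 40.1% without HP arrays 1, 2 and 4. List genes called numbered 9, and 5 to 11 with 1 array left out, the 5 being without LP pig 2.

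Signs turned as follows. Quantile normalisation gave 0.0036 for ATF4, 0.010 for its dimmer probe set, 0.012 for TTN and 0.0019 for FABP4. The spike-in covariate gave 0.065 for DDIT4, 0.0077 for ATF4, 0.077 for its dimmer probe set, 0.071 for CEBPB, 0.0077 for GLUL, 0.0033 for RPS6, 0.0040 for TTN, 0.0063 for TNNT1, 0.027 for TNNC2, 0.034 for FABP4 and 0.00090 for CLDN5. Leaving out HP arrays 1, 2 and 4 gave 0.046 for PSAT1, 0.0061 for DDIT4, 0.028 for ATF4, 0.11 for its dimmer probe set, 0.087 for CEBPB, 0.13 for GLUL, 0.074 for RPS6, 0.051 for TTN, 0.078 for TNNT1, 0.12 for TNNC2, 0.0012 for LIPE, 0.18 for FABP4 and 0.12 for CLDN5. With 1 array left out PSAT1 ran from -0.21 to 0.034, LIPE from -0.30 to 0.026 and FABP4 from -0.22 to 0.0067, turning without LP array 1 or 4, HP array 1 and HP array 4 respectively. The causes were not tested.

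The correlation of ATF4 with DDIT4 no longer passed after quantile normalisation (0.299), with the spike-in covariate (0.443), by Spearman (0.782) and without HP arrays 1, 2 and 4 (0.907), and ran from 0.732 to 0.901 with 1 array left out, failing without HP pig 3 or 6 or LP pig 3, 4 or 5. The pairs that passed numbered 0 in those 4 settings, 2 with diet means kept, and 0 to 2 with 1 array left out. The puma analysis, which needs probe-level values, was not run.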
